A study of Mus musculus with 36 samples.

Results

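Retinoic acid patterns the embryonic axis, and 9 mouse genes that make, break down, carry or sense it are described here. They were chosen by name, as every probe of the array whose gene symbol is Rdh10, Aldh1a2, Dhrs3, Cyp26a1, Crabp1, Crabp2, Rara, Rarb or Rarg, which gave 15 of 45281 probes and 9 of 30869 gene symbols. RNA from dissected pieces of wild-type embryos of MF1, an outbred strain, was measured on Illumina BeadChips, arrays on which the brightness of beads reports each transcript. E7.5 embryos gave an anterior piece (A), a posterior one (P) and one from the proximal part of the posterior side (PP). E8.5 embryos with 2 to 5 somites gave RN (rostral node), NSB (where node meets streak), CLE (epiblast caudal and lateral to it), St1 (anterior streak) and St5 (posterior streak). Tail buds gave the chordoneural hinge (CNH) daily between E9.5 and E13.5, and at the first 3 of these stages also P-CNH, which lies posterior to it. Most regions (12 of 16) had 2 arrays, while CLE, NSB, the E11.5 CNH and the E7.5 A region had 3, which made 36 in all. Each array held a pool of 6 to 74 pieces, so p-values measure the spread between pools, and the number of arrays limits the precision. A dissected piece holds several cell types, and fewer cells of a type cannot be told apart from less RNA per cell.

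Retinoic acid is made from retinol in a pair of oxidation steps, the first by retinol dehydrogenases such as Rdh10 and the second by retinaldehyde dehydrogenases, of which Aldh1a2 is the main one in the early embryo. Dhrs3 turns retinaldehyde back into retinol, and the cytochrome P450 enzyme Cyp26a1 hydroxylates retinoic acid so that it is cleared. Inside the cell, Crabp1 and Crabp2 bind retinoic acid, and the nuclear receptors Rara, Rarb and Rarg act on genes in partnership with retinoid X receptors. In the elongating axis, retinoic acid from somites is known to oppose Fgf8 made by the caudal progenitor zone, and Cyp26a1 is known to keep that zone low in retinoic acid.

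Levels are given as normalised log2 intensity, and levels of different member probes are not compared. A probe counted as detected on an array where its detection p was under 0.01, and probes detected on at least 1 array were tested, which kept 12 of the 15 member probes and 8 of the 9 genes. The only Dhrs3 probe was detected on no array and ranged from 4.41 to 5.25, so that Dhrs3 was left out of the tests. The third probes of Rarb and Rarg were also detected on no array. Cyp26a1, Crabp1, Crabp2 and Rarg were detected on all 36 arrays by their brightest probe, Aldh1a2 on 20, Rarb on 13, Rara on 8 and Rdh10 on 1. The brightest probe represents each gene below. A difference counts as called where, in 1 model with region and batch, the adjusted p was 0.05 or lower and the fold change 1.5 or higher, for a slope over its 4 days. Across the 16 regions as a whole, 6 of the 8 tested members differed in limma's F-test, which has no fold rule (Aldh1a2, Cyp26a1, Crabp1, Crabp2, Rarb and Rarg), where 35.6% of all tested probes did. Rdh10 (adjusted p = 0.062) and Rara did not pass.

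**Figure D1:**
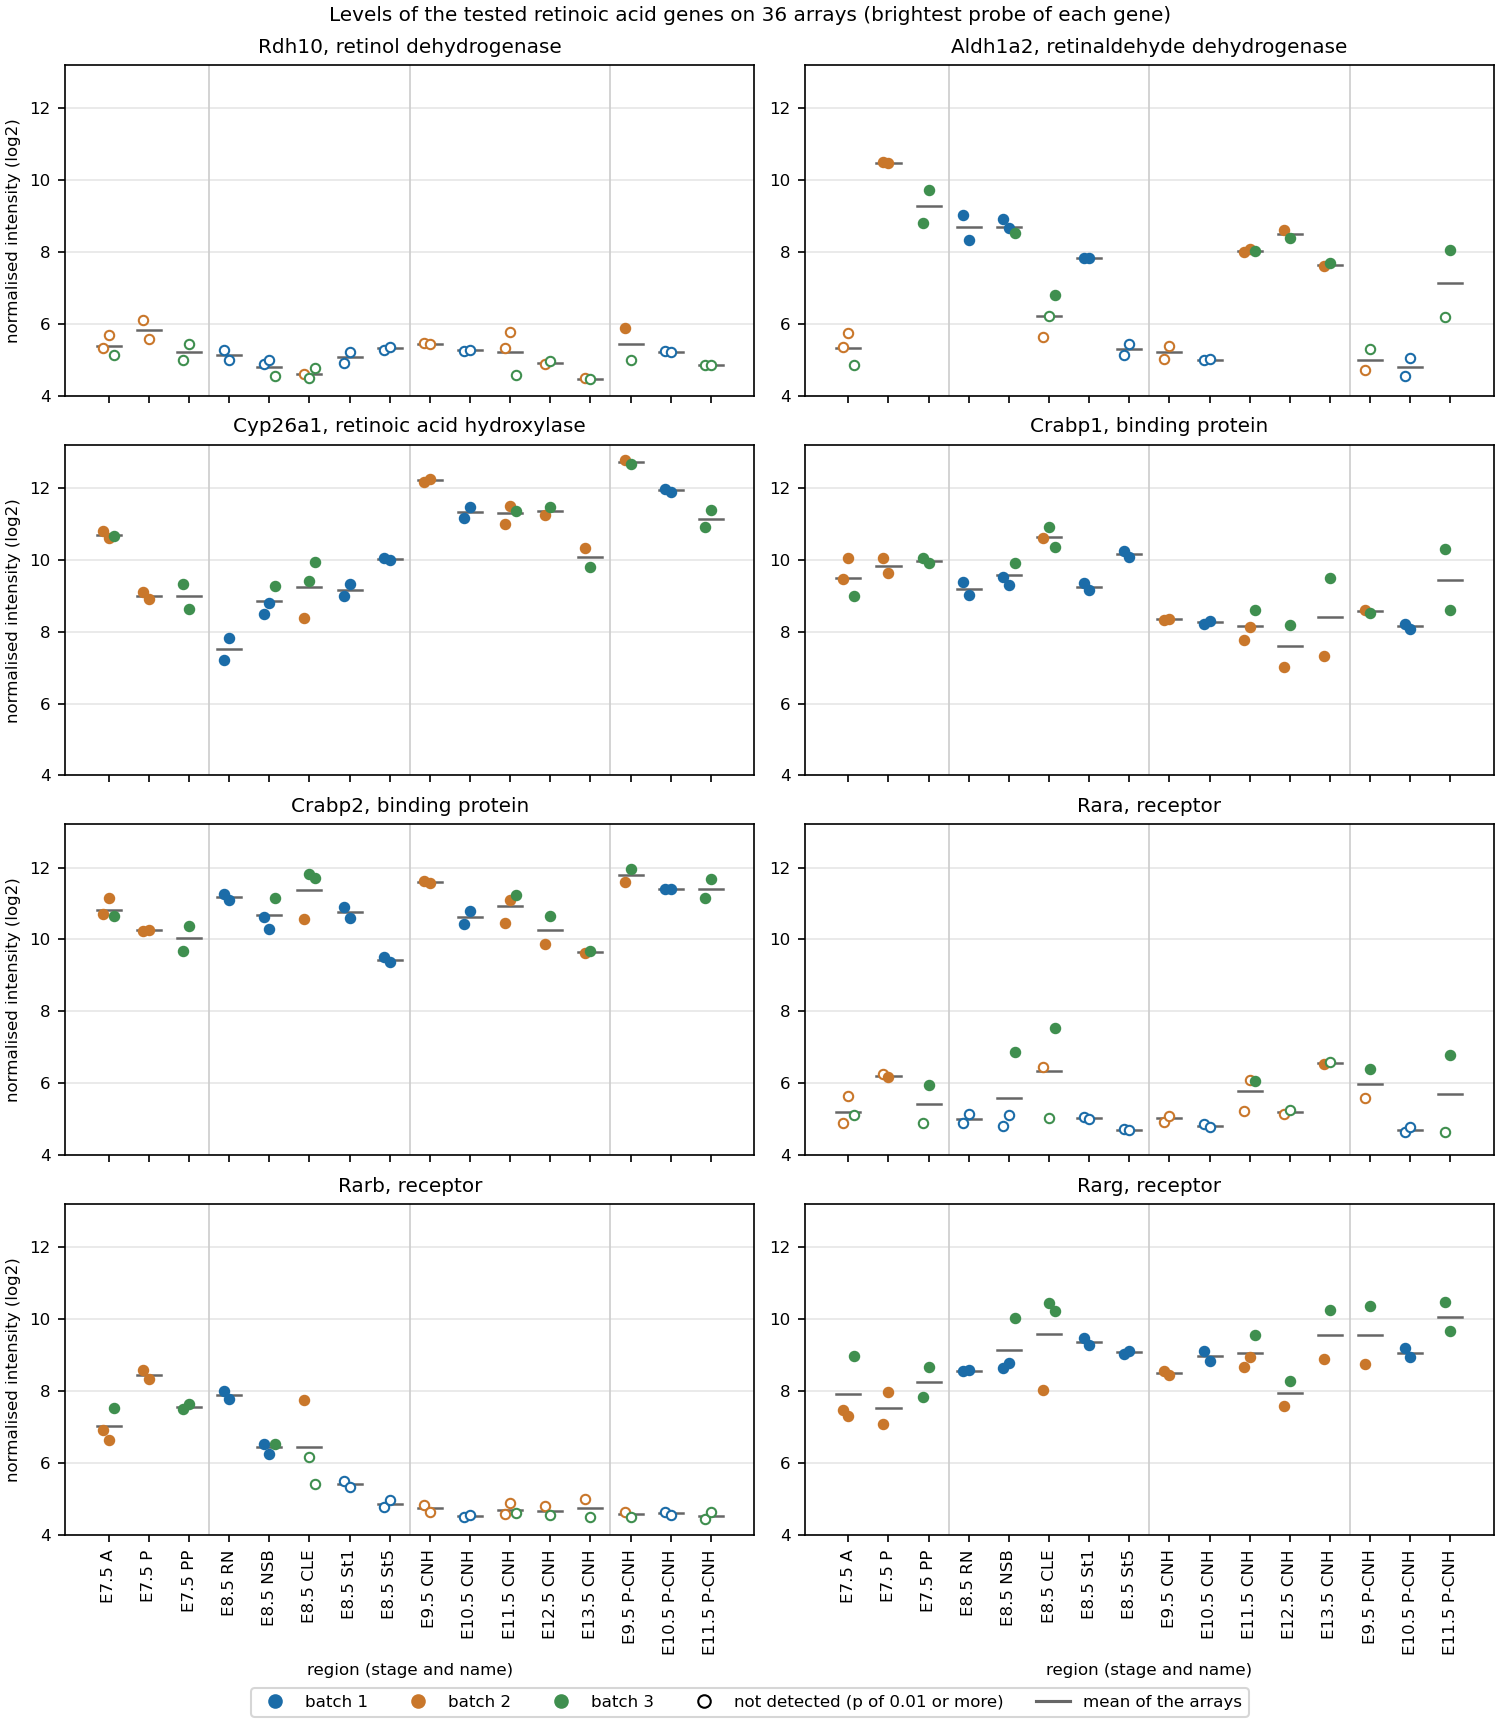
Normalised log2 intensity (y axis) of the 8 tested genes in the 16 regions (x axis), with 1 point for each array coloured by batch, open where the probe was not detected, and a bar at the mean. Aldh1a2 lies at its floor in E7.5 A, St5 and the E9.5 and E10.5 tail bud, where Cyp26a1 lies at 9.99 or above, and Rarb is undetected in every tail bud region.

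Cyp26a1 and Rarb are known targets of retinoic acid, and the stretch before the start of each is shown because their levels ran in opposite directions here. RefSeq windows of 250 bases before the start (build GRCm38.p6) were found for 7 of the 9 members, 13 windows in all, and not for Rdh10 and Crabp2. They were searched on both strands for the direct repeats that bind retinoic acid receptors, a pair of half-sites spaced by 1 (DR1), 2 (DR2) or 5 (DR5) bases of any kind. A half-site was AGGTCA, its variant AGTTCA with thymine for a guanine, the variant GGTTCA that starts with a guanine, or the variant GGGTCA. A DR5 stands in capitals in the Cyp26a1 window, chr19:37697558-37697807 on the plus strand, and in the Rarb window, chr14:16575477-16575726 on the minus strand.
Cyp26a1: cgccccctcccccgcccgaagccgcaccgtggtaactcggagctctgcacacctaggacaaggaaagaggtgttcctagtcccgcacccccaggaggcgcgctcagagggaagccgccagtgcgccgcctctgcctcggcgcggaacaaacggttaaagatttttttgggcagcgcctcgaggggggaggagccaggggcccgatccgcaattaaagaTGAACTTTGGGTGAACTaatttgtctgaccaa
Rarb: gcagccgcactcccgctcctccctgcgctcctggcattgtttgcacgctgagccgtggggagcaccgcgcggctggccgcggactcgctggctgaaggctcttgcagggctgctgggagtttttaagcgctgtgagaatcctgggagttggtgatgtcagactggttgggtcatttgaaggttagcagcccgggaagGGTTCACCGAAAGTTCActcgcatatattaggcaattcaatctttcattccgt
In Cyp26a1 the repeat reads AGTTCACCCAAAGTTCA on the opposite strand, 32 to 16 bases before the start. The Rarb repeat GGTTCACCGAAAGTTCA lies on the same strand, 53 to 37 bases before the start. A DR5 of these letters occurs in 29 of 32851 such windows (0.0883%), a DR1 in 0.164% and a DR2 in 0.174%. The windows of the other 5 members found (Aldh1a2, Dhrs3, Crabp1, Rara and Rarg) held none of the 3 repeats.

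Of the genes of synthesis, Aldh1a2 varied most. Its level was 10.51 and 10.47 on the arrays of E7.5 P and 8.82 and 9.73 in PP, but 5.36, 5.74 and 4.87 in A, where it was not detected. At E8.5 it was 9.03 and 8.34 in RN, 8.91, 8.67 and 8.52 in NSB, and 7.84 and 7.83 in St1. It was 5.63, 6.22 and 6.82 in CLE, where 1 of 3 arrays detected it, and 5.15 and 5.45 in St5, where none did. The lowest detected level of any probe was 7.10, 6.65 and 5.88 on the CLE arrays, against 5.71 and 5.62 in St5, so that CLE arrays detected less. The level thus fell away both anteriorly at E7.5 and in the posterior streak at E8.5, with no overlap between these arrays and those of P, PP, RN, NSB or St1. In the tail bud, Aldh1a2 was undetected at E9.5 (5.02 and 5.40 in CNH, 4.72 and 5.30 in P-CNH) and at E10.5 (5.00 and 5.02 in CNH, 4.56 and 5.06 in P-CNH). It was detected again in the CNH at E11.5 (7.99, 8.10 and 8.03), E12.5 (8.61 and 8.39) and E13.5 (7.60 and 7.71). The P-CNH arrays at E11.5 stood apart from each other, at 6.20 (undetected, on an array whose lowest detected level was 6.66) and 8.07. In the order of the regions by mean, E7.5 P at 10.49 came first and E10.5 P-CNH at 4.81 last. Arrays of neighbouring regions in that order overlapped except between P and PP, E12.5 and E11.5 CNH, E11.5 CNH and St1, and St1 and E13.5 CNH. The second Aldh1a2 probe was called the same way in A minus P, PP minus A and E10.5 CNH minus NSB. It was not called in 6 comparisons that called the first, RN (1.16, adjusted p = 0.77) and St5 (-1.75, 0.068) against the rest of E8.5, E9.5 CNH minus NSB (-2.72, 0.059), E10.5 P-CNH minus St1 (-1.97, 0.057), St5 minus PP (-3.43, 0.10) and the slope along the CNH (0.46, 0.059). Rdh10, between 4.46 and 6.11, was detected only on 1 array of E9.5 P-CNH (5.89), and none of its differences was called.

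Cyp26a1, the enzyme of breakdown, was lowest in RN and highest in the early tail bud. It measured 10.81, 10.60 and 10.66 in E7.5 A, 9.10 and 8.90 in P, and 9.33 and 8.62 in PP. At E8.5 its level was 7.21 and 7.83 in RN, 8.79 and 9.27 on the brighter NSB arrays (mean of all 3, 8.86), 8.37, 9.42 and 9.94 in CLE, 8.99 and 9.33 in St1, and 10.05 and 9.99 in St5. All arrays of RN lay below, and all of St5 above, those of the other E8.5 regions. The CNH arrays read 12.17 and 12.25 at E9.5, 11.17 and 11.47 at E10.5, 11.00, 11.51 and 11.36 at E11.5, 11.24 and 11.48 at E12.5, and 10.32 and 9.81 at E13.5. In P-CNH they read 12.77 and 12.67, then 11.96 and 11.90, then 10.90 and 11.38 over the 3 days. By this probe every tail bud array was thus above every RN, NSB, St1, P and PP array. By mean, the order ran from E9.5 P-CNH (12.72) and E9.5 CNH (12.21) to NSB (8.86) and RN (7.52). The arrays of E10.5, E11.5 and E12.5 CNH overlapped, as did those of CLE, St1, P, PP and NSB. By the second probe the E13.5 CNH (4.48 to 5.57) overlapped RN (5.02 to 5.09), and PP (4.74) was lowest by mean, all undetected. The second Cyp26a1 probe was detected on 19 arrays and called in the same direction in E10.5 P-CNH minus St1 (log2 difference 3.51 ± 0.96 SE, adjusted p = 0.025) and along the CNH stages. It was not called in 6 comparisons that called the first, A minus P (1.06, adjusted p = 0.84), PP minus A (-1.13, 0.62), RN (-0.72, 1.0) and St5 (1.41, 0.69) against the rest of E8.5, E9.5 CNH minus NSB (3.16, 0.20) and E10.5 CNH minus NSB (2.66, 0.12).

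**Figure D2:**
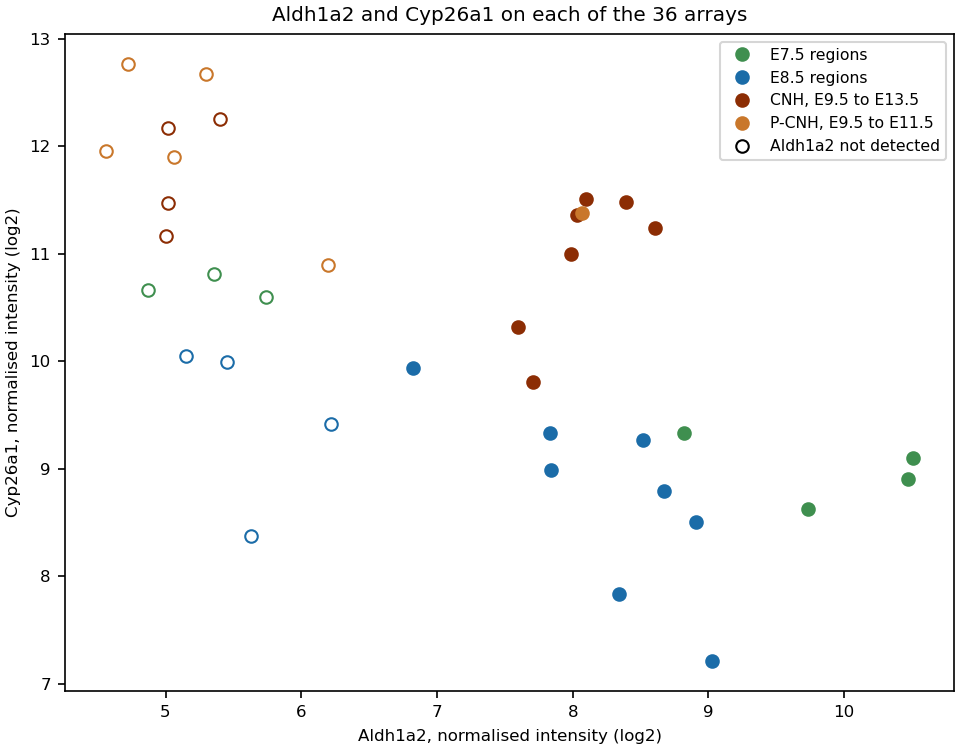
Normalised log2 intensity of Aldh1a2 (x axis) and Cyp26a1 (y axis) on each of the 36 arrays, coloured by stage and tail bud region and open where Aldh1a2 was not detected. The 8 tail bud arrays of E9.5 and E10.5 lie at the upper left, RN at the lower right, and CNH arrays from E11.5 on hold both transcripts.

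Over the 16 fitted region means, which share batches and stages, the correlation of Aldh1a2 with Cyp26a1 was r = -0.69, a description of these regions. That of Cyp26a1 with Rarb was -0.83 and that of Aldh1a2 with Rarb 0.56. Against Fgf8, the caudal counterpart, r was 0.63 for Rarg, 0.54 for Cyp26a1, 0.38 for Crabp2, 0.22 for Rara, -0.15 for Rdh10, -0.35 for Aldh1a2 and for Crabp1, and -0.68 for Rarb. Rdh10 was detected on 1 array, Rara on 8 and Rarb on 13, so that each r with these genes rests mostly on undetected values. For Rarb, which includes the r with Cyp26a1 and with Aldh1a2, these were all values of St1, St5 and the tail bud regions and some of CLE. Among 5594 gene symbols whose region means varied enough, those with the pattern most like Aldh1a2 were Zfp533 (r = 0.825), Meis1 (0.813) and Car3 (0.811). Those for Cyp26a1 were Pcdh21 (0.941), 1200009O22Rik (0.925) and Sall1 (0.924). Only NSB replicate 3 ties batch 1 to the other batches in the fit. Each r over region means, here and below, therefore also rests on that array.

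Comparing the anterior with the posterior region at E7.5 asks how the pathway is laid out before somites form. Aldh1a2 was at least 21.6-fold lower in A than in P (log2 difference -5.20 ± 0.41 SE, adjusted p = 1.9e-08), a lower bound because A was undetected. Under the alternatives that left out no single array, this log2 difference ranged from -5.26 to -3.62. Cyp26a1 was 3.07-fold higher in A (1.62 ± 0.32, adjusted p = 0.0041). So Aldh1a2 and Cyp26a1 differed in opposite directions between A and P, and 2 of 8 tested members were called where 2.73% of all probes were. The receptor Rarb was lower in A by its second probe (-1.95 ± 0.29, adjusted p = 1.6e-04), while its brightest probe gave -1.31 ± 0.38 and missed the threshold (adjusted p = 0.071). Of 9 tested genes known to respond to retinoic acid, 5 were called, all lower in A, among them Cdx1 (-6.91 ± 0.28, at least 49.1-fold) and Hoxb1 (-6.35 ± 0.53, at least 55.1-fold), undetected in A. Their median log2 difference was -1.92, where that of the members was -0.41 and that of all tested probes 0.04. Of 13 tested other pathway genes, the retinoid X receptor Rxrg alone was called, lower in A (-2.18 ± 0.30, adjusted p = 5.1e-05). In the list of 5 caudal signals, 4 were lower in A, with Wnt3a at -7.09 ± 0.23 (at least 68.5-fold), Fgf17 at -4.18 ± 0.34 (at least 7.63-fold) and Fgf8 at -2.89 ± 0.34. Within batch 2 alone Aldh1a2 differed by -4.94 (adjusted p = 2.7e-04) and Cyp26a1 by 1.70 (adjusted p = 0.016), and the brightest Rarb probe was called as well, beside 1.75% of all probes. The Cyp26a1 call was lost without E7.5 P replicate 2 (1.52, adjusted p = 0.052), and the count ranged from 1 to 3 over the left-out arrays, with 3 without CLE replicate 1 or 3 or E7.5 A replicate 3.

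PP, the proximal posterior region, was compared with both other regions of E7.5. Against A, Aldh1a2 was at least 9.33-fold higher in PP (3.88 ± 0.44, adjusted p = 1.9e-06), Cyp26a1 3.60-fold lower (-1.85 ± 0.34, adjusted p = 8.8e-04) and the binding protein Crabp2 2.11-fold lower (-1.08 ± 0.31, adjusted p = 0.037). These 3 of 8 calls stand beside 6.15% of all probes. The Aldh1a2 difference ranged from 2.47 to 4.40 under the alternatives that left out no single array. The median log2 difference of the 8 members was 0.10 in PP minus A and -0.57 in PP minus P. The second Rarb probe was also called in PP minus A, higher in PP (1.38 ± 0.31, adjusted p = 0.0055). Between PP and P, limma called 0 members, with 1 at an unadjusted p under 0.05, and 0.792% of all probes. That one was Aldh1a2 (-1.32 ± 0.50, adjusted p = 0.32), whose arrays in PP all lay below those in P. The P arrays lie in batch 2 and the PP arrays in batch 3, so that PP minus P rests on the batch term. In PP minus A, 5 of 9 responsive genes were called, all higher, with Cdx1 at 7.41 ± 0.29 (at least 90.8-fold), and 4 of 13 other pathway genes, of which Rbp4 (3.06 ± 0.49), which carries retinol in plasma, Rxrg (2.23 ± 0.31) and Rdh11 (1.05 ± 0.19) were higher. Rbp4 and Rdh11 were also the 2 other pathway genes called in PP minus P (3.57 ± 0.57, at least 12.4-fold, and 1.04 ± 0.22), where 0 of 9 responsive genes were called by limma and 1 had an unadjusted p under 0.05. Of the caudal signals, 4 of 5 were higher in PP than in A, with Wnt3a at 7.68 ± 0.24 (at least 97.7-fold), Fgf17 at 4.98 ± 0.36 (at least 22.9-fold) and Fgf8 at 3.03 ± 0.36, and limma called 0 of 5 in PP minus P, 1 having an unadjusted p under 0.05. The Crabp2 call was lost with no batch term (-0.80, adjusted p = 0.26), when BeadChip was a random block (-0.80, 0.23), with no filter (-1.08, 0.056), and without E7.5 A replicate 1 (-1.08, 0.071), E7.5 A replicate 2 (-0.88, 0.12), E7.5 PP replicate 1 (-0.74, 0.51), E11.5 CNH replicate 3 (-1.08, 0.053), E12.5 CNH replicate 1 or E12.5 CNH replicate 2 (-1.04, 0.051 each). Without E7.5 A replicate 3 the count rose to 4. Batch 3 alone, with 3 residual degrees of freedom, gave Aldh1a2 4.40, Cyp26a1 -1.68 and Crabp2 -0.61 in PP minus A and called no probe.

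Markers of other cell types moved with these E7.5 differences. The summed normalised intensity of 6 somite markers was 2332 and 3011 in P, 999, 1236 and 801 in A and 348 and 749 in PP. Of the 4 tested somite markers, limma called 1 in A minus P, Meox1 (-3.77 ± 0.43), the brightest of the list in P and in PP. In PP minus A, Meox1 was higher (1.57 ± 0.45, adjusted p = 0.039), as Aldh1a2 was, and Tcf15, the brightest in A, lower (-3.28 ± 0.34). Of the presomitic mesoderm markers, Tbx6 and Dll1 were called, lower in A than in P (-5.16 ± 0.27, at least 25.9-fold, and -3.48 ± 0.66) and higher in PP than in A (5.21 ± 0.28, at least 40.4-fold, and 4.27 ± 0.69). Their list summed to 163, 193 and 149 in A, 3087 and 2691 in P, and 3967 and 3803 in PP. The notochord marker Shh was higher in A than in P (2.14 ± 0.51) and lower in PP than in A (-4.56 ± 0.53, at least 29.7-fold). Visceral endoderm markers summed to 37659 and 17969 in PP, 10763 and 6066 in P, and 2104, 2163 and 10890 in A. Of the 7, which include Rbp4, 5 were higher in PP than in A, and all 7 were detected on both PP arrays, with Ttr the brightest. The 3 anterior neurectoderm markers summed to 6712, 5912 and 3866 in A but 1106 and 975 in P and 140 and 116 in PP, with Otx2 the brightest throughout. The 4 streak markers summed to 10140 and 10748 in P, 12388 and 22334 in PP, and 2145, 2423 and 1192 in A. Of the 4 lateral plate markers, 3 were higher in PP than in A, Foxf1a (2.41), Hand1 (2.40) and Tbx4 (1.04). Foxf1a alone of these was called in A minus P, lower in A (-2.49). In PP minus P, Meox1 (-2.21), Tcf15 (-3.63) and Otx2 (-3.38) were called lower. Mixl1 (1.98), Hand1 (2.37), Afp (2.65) and Rbp4 (3.57) were called higher there. Their part in the differences was not tested.

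At E8.5 the regions run from the node to the posterior streak, and the question was where along this stretch the pathway changes. RN stood out against the mean of the rest of E8.5. Rarb was higher in RN (2.18 ± 0.36, adjusted p = 4.4e-04), Aldh1a2 higher (1.57 ± 0.39, adjusted p = 0.029) and Cyp26a1 3.05-fold lower (-1.61 ± 0.30, adjusted p = 0.0023). These were 3 of 8 members, where 2.25% of all probes were called. No fold is given for Rarb and Aldh1a2, since arrays of CLE, St1 or St5 in the mean did not detect them. St5 showed the opposite of RN in the same 3 genes. Aldh1a2 was lower (-2.67 ± 0.39, adjusted p = 6.7e-05), Rarb, undetected in St1 too, lower (-1.60 ± 0.36, adjusted p = 0.0054) and Cyp26a1 2.86-fold higher (1.51 ± 0.30, adjusted p = 0.0021). No Aldh1a2 fold is given here either, since only 1 of the 3 CLE arrays in the mean detected it. Crabp2 was also lower in St5, 2.57-fold (-1.36 ± 0.28, adjusted p = 0.0023), which made 4 of 8, where 5.47% of all probes were called. Both comparisons share arrays, and each holds the other region in its mean, which favours opposite signs by construction. How much of the opposition comes from this was not tested.

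**Figure D3:**
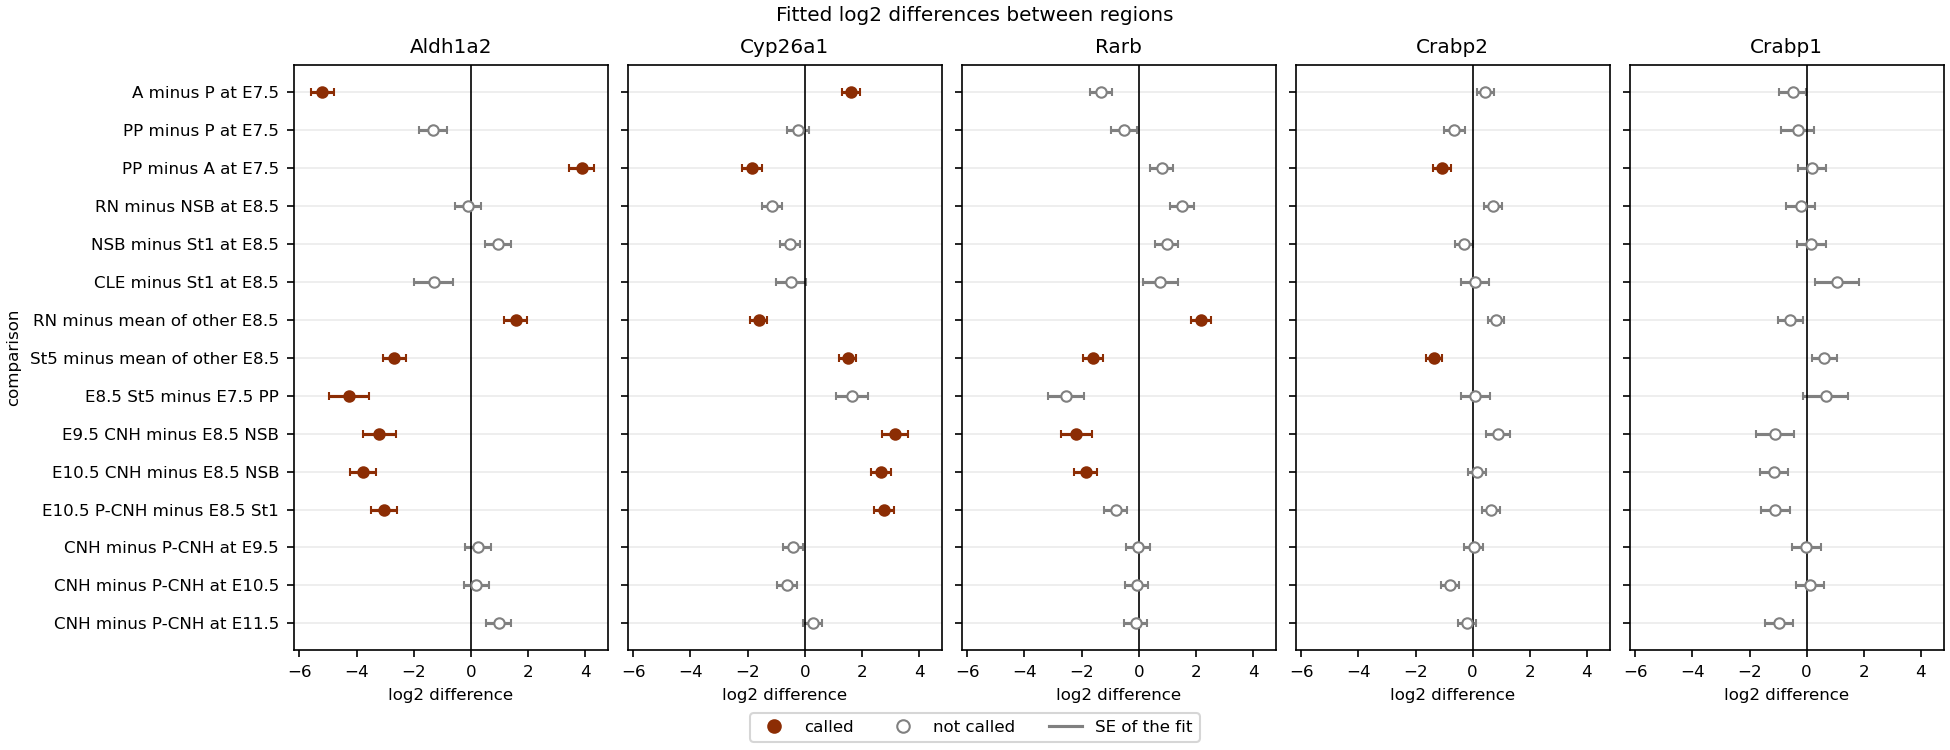
Fitted log2 differences (x axis) of 5 members in the 15 comparisons of regions (y axis), filled where called, with bars of 1 SE. Aldh1a2 and Cyp26a1 lie on opposite sides of 0 in each comparison that called both, and the 3 comparisons of CNH with P-CNH hold no call.

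Neighbouring E8.5 regions were compared next. limma called 0 of 8 members in RN minus NSB, with 3 at an unadjusted p under 0.05, where 0.134% of all probes were called. The second Rarb probe was among the called ones (1.62 ± 0.31, adjusted p = 0.032), and the brightest gave 1.51 ± 0.41 (adjusted p = 0.35). Cyp26a1 differed by -1.13 ± 0.35 (adjusted p = 0.72), though its RN arrays all lay below those of NSB. Aldh1a2 gave -0.10 ± 0.45, so that its call in RN rests on a mean that includes CLE and St5. In NSB minus St1, limma called 0 members, with 2 at an unadjusted p under 0.05, and 1.42% of all probes. Aldh1a2 gave 0.96 ± 0.45 there, with every NSB array above every St1 array. CLE minus St1 also gave 0 calls by limma, with 0 members at an unadjusted p under 0.05, and 0.106% of all probes.

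Within batch 1 alone, which holds RN, St1, St5 and 2 NSB arrays but no CLE array, the calls of RN and St5 against the others held. For RN, Rarb gave 2.34, Cyp26a1 -1.75 and Aldh1a2 1.38 (adjusted p = 2.2e-07, 3.0e-05 and 3.8e-04), and for St5, Aldh1a2 gave -3.14, Cyp26a1 1.58, Rarb -1.70 and Crabp2 -1.35. In that batch Cyp26a1 and Rarb were called in RN minus NSB, where 1.91% of all probes were, and Aldh1a2, Rarb and Rarg in NSB minus St1, where 4.46% were, with the same differences by construction and the batch's own error. In the whole series the Aldh1a2 call in RN was lost with cyclic loess (1.44, adjusted p = 0.087), with no filter (1.57, 0.062), and without St5 replicate 1 (1.54, 0.055), NSB replicate 1 (1.63, 0.060), NSB replicate 2 (1.51, 0.095), RN replicate 1 (1.23, 0.73) or RN replicate 2 (1.92, 0.075). The Cyp26a1 call in RN was lost without RN replicate 1 (-1.30, adjusted p = 0.17). In St5, the Rarb call was lost without replicate 1 (-1.51, 0.10) or replicate 2 (-1.69, 0.057), and that of Crabp2 without replicate 2 (-1.29, 0.065).

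Genes that respond to retinoic acid were also uneven across E8.5. In RN, 3 of 9 were called against the other regions, all higher, among them the transcription factor Meis1 (1.52 ± 0.39, adjusted p = 0.036) and the transglutaminase Tgm2 (2.74 ± 0.47). Tgm2 (2.65 ± 0.53) was also among the 2 called in RN minus NSB. In St5, 2 of 9 were called, both lower, among them Cdx1 (-1.63 ± 0.26). Of the other pathway genes, limma called 0 of 13 in RN (1 at an unadjusted p under 0.05) and 3 in St5, where Rxrg (-2.43 ± 0.28) and the retinol transporter Stra6 (-1.59 ± 0.44) were lower and Rdh11 (0.74 ± 0.17) higher. Of the caudal signals, 3 of 5 were lower in RN, with Wnt3a at -2.92 ± 0.22, Fgf8 at -2.20 ± 0.32 and Fgf17 at -2.11 ± 0.32, and the same 3 were called in RN minus NSB (-2.80 ± 0.25, -1.95 ± 0.37 and -1.81 ± 0.37). In St5, limma called 0 of 5, with 1 at an unadjusted p under 0.05. In NSB minus St1, only Fgf4 of these lists was called (-1.39 ± 0.27, at least 1.21-fold).

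Cell type markers moved along the same stretch. The 6 somite markers summed to 1891 and 1247 in RN, 886, 687 and 1148 in NSB, 379 and 351 in St1, 284, 360 and 262 in CLE, and 287 and 274 in St5, and 3 of the 4 tested (Meox1, Tcf15 and Foxc2) were higher in RN than the mean of the rest. The notochord and node markers summed to 6040 and 7246 in RN and 5400, 6038 and 4813 in NSB, but 516 and 479 in St5, and 4 of 5 were higher in RN, with Shh the brightest. Lateral plate markers summed to 5766 and 7124 in St5 and to between 118 and 273 in the other E8.5 regions, and all 4 were higher in St5, with Tbx4 the brightest. The neural markers summed to 1014 and 984 in RN and 195 and 180 in St5, where none was detected. In RN, 3 of 6 blood markers were higher, and the 6 summed to 9101 and 4499 there against 911 to 4965 in NSB, St1 and St5. The somite marker Meox1 was lower in St5 (-2.08), as Aldh1a2 was, and the endothelium markers Cdh5 (2.38) and Flt1 (2.12) higher. The streak markers Mixl1 and Evx1 were lower in RN (-2.92 and -2.53) and higher in St5 (3.36 and 1.10), as Cyp26a1 was. Their part in the differences was not tested.

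Between E8.5 and the tail bud, Aldh1a2 and Cyp26a1 changed in opposite directions, while Rdh10 was undetected in all 5 regions compared. From NSB to the E9.5 CNH, Aldh1a2 fell by 3.20 on the log2 scale (SE 0.59, at least 5.64-fold, adjusted p = 0.0014), Rarb fell by 2.19 (SE 0.54, at least 1.17-fold, adjusted p = 0.017), and Cyp26a1 rose 8.87-fold (3.15 ± 0.46, adjusted p = 8.7e-05). These 3 of 8 members stand beside 5.04% of all probes. From NSB to the E10.5 CNH the same 3 were called, where 7.14% of all probes were. Aldh1a2 fell by 3.78 (SE 0.45, at least 8.52-fold, adjusted p = 2.4e-06), Rarb fell by 1.86 (SE 0.41, at least 1.77-fold, adjusted p = 0.0038), and Cyp26a1 rose 6.37-fold (2.67 ± 0.35, adjusted p = 9.0e-06). From St1 to the E10.5 P-CNH, Aldh1a2 fell by 3.03 (SE 0.45, at least 4.53-fold, adjusted p = 6.6e-05) and Cyp26a1 rose 6.85-fold (2.78 ± 0.35, adjusted p = 8.0e-06), 2 of 8 members beside 7.07% of all probes. Rarb was undetected on both sides there. Alternatives that left out no single array moved the Aldh1a2 differences. They ranged from -4.00 to -1.85 in the E9.5 CNH, -3.82 to -2.18 in the E10.5 CNH and -3.13 to -1.48 in P-CNH.

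These E10.5 comparisons lie within batch 1, so that this batch alone gives the same differences by construction and is no separate check of them. The E9.5 comparison has no arrays of both sides in 1 batch, and only NSB replicate 3 ties batch 1 to the others. The Rarb call at E9.5 was lost with an offset of 100 (-0.83, adjusted p = 0.15), with cyclic loess (-1.57, 0.092), when BeadChip was a random block (-1.40, 0.091), and without E9.5 CNH replicate 1 (-2.28, 0.053) or 2 (-2.10, 0.082). At E10.5 it was lost with the offset of 100 (-0.65, 0.11) and without NSB replicate 1 (-1.71, 0.063).

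Of the responsive genes, Cdx1 (-5.47 ± 0.40) and Meis2 (-3.12 ± 0.57) were the 2 of 9 called at E9.5, both lower, and 4 of 9 were called in the E10.5 CNH, 3 of them lower, with Cdx1 at -5.43 ± 0.30 and Meis2 at -3.42 ± 0.43. In the E10.5 P-CNH against St1, 3 of 9 were lower, among them Cdx1 (-5.20 ± 0.30) and Meis2 (-4.68 ± 0.43). Rxrg was lower in all 3 comparisons, with -3.84 at E9.5 (at least 5.01-fold), -3.40 in the E10.5 CNH (at least 7.56-fold) and -3.82 in P-CNH (at least 8.92-fold). It was the 1 of 13 other pathway genes called at E9.5. At E10.5, 3 were called in each region, among them Rdh14, higher in the CNH (1.16 ± 0.35), and Rdh11, higher in P-CNH (0.97 ± 0.19). Of the caudal signals, Fgf17 was higher in the E9.5 CNH (2.15 ± 0.49), Fgf17 and Fgf8 in the E10.5 CNH (2.30 ± 0.37 and 1.31 ± 0.37), and in P-CNH Fgf17 was higher (1.38 ± 0.37) and Fgf4 lower (-1.33 ± 0.27, at least 1.43-fold).

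Markers of several cell types moved with age. The 3 endoderm markers, all lower in each of these 3 comparisons, summed to between 13201 and 13847 in NSB and to 747 and 708 in the E9.5 CNH, with Trh the brightest in NSB. The 6 blood markers summed to 1181 to 3939 in NSB, 37271 and 37803 in the E9.5 CNH, and 29348 and 31107 in the E10.5 CNH, and 3 of 6 (Hbb-y, Hbb-bh1 and Hba-x) were higher in each comparison. Visceral endoderm markers were lower at E10.5, 2 of 7 in the CNH and 4 of 7 in P-CNH, with Ttr at -3.40 ± 0.68 (at least 6.64-fold) and -4.48 ± 0.68 (at least 14.4-fold). Of the notochord and node markers, Shh (-2.91 ± 0.54, at least 4.37-fold) and Foxa2 (-1.75 ± 0.42, at least 1.48-fold) were lower in P-CNH than in St1. Called lower as well were Tbx4 in both E10.5 comparisons, Olig3 and Otx2 in both comparisons with NSB, and Cldn4 at E9.5, while Cdh5 in the E10.5 CNH and Pax3 in P-CNH were higher. Somite marker sums in NSB (687 to 1148) and the E9.5 CNH (763 and 716) overlapped, but the brightest was Meox1 in NSB and Tcf15 in the CNH. Meox1 was lower in the E9.5 CNH (-2.21 ± 0.62, adjusted p = 0.037), as Aldh1a2 was, and Tcf15 higher in the E10.5 CNH (1.94 ± 0.35) and P-CNH (2.88 ± 0.35). Their part in the differences was not tested.

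The posterior end was followed from PP at E7.5 to St5 at E8.5. Aldh1a2 fell by 4.26 (SE 0.70, at least 12.2-fold, adjusted p = 0.0027), and this was the 1 call among 8 members, where 1.03% of all probes were called. Alternatives that left out no single array gave Aldh1a2 differences of -4.49 to -2.75. The second Rarb probe also fell, by 3.21 (SE 0.49, at least 2.65-fold, adjusted p = 0.0017), while its brightest probe gave -2.55 ± 0.64 (adjusted p = 0.056). Rarg gave 2.16 ± 0.56 (adjusted p = 0.067) and Cyp26a1 1.66 ± 0.55 (adjusted p = 0.17). By limma, 0 of 9 responsive genes (4 at an unadjusted p under 0.05), 0 of 13 other pathway genes (2) and 0 of 5 caudal signals (2) were called. These regions share no batch, and from 1 to 3 members were called when single arrays were left out. Visceral endoderm markers summed to 2080 and 2169 in St5 against 37659 and 17969 in PP, with 2 of 7 called lower, and the lateral plate marker Tbx4 was higher in St5 (4.91 ± 0.42, adjusted p = 5.9e-07). Their part was not tested.

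Along the CNH from E9.5 to E13.5, Aldh1a2 rose by 0.86 ± 0.11 on the log2 scale per day (adjusted p = 1.6e-05), Cyp26a1 fell by 0.50 per day (SE 0.09, adjusted p = 4.9e-04) and Crabp2 fell by 0.52 per day (SE 0.08, adjusted p = 1.2e-04). These 3 of 8 slopes stand beside 12.8% of all probes. The Aldh1a2 slope summarises a step, since both early stages were undetected and the arrays from E11.5 to E13.5 lay between 7.60 and 8.61. Over 4 days, Cyp26a1 changed by a fitted 3.97-fold and Crabp2 by 4.18-fold. Fgf8 fell by 0.59 per day (SE 0.09, adjusted p = 1.6e-04), Fgf17 fell by 0.50 and Wnt3a fell by 0.22, 3 of the 5 caudal signals. Of the responsive genes, 5 of 9 were called, with Cdx1 (-0.79 ± 0.08) and Hoxb1 (-0.76 ± 0.15) lower and Meis1 (0.61 ± 0.11) higher with age, and limma called 0 of 13 other pathway genes (2 at an unadjusted p under 0.05). In batch 2 alone the slopes were 0.69 for Aldh1a2, -0.43 for Cyp26a1 and -0.52 for Crabp2, all called. In batch 3 alone, which holds CNH arrays of E11.5 to E13.5 only, Aldh1a2 had a slope of -0.16 (adjusted p = 0.91), and no probe was called.

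**Figure D4:**
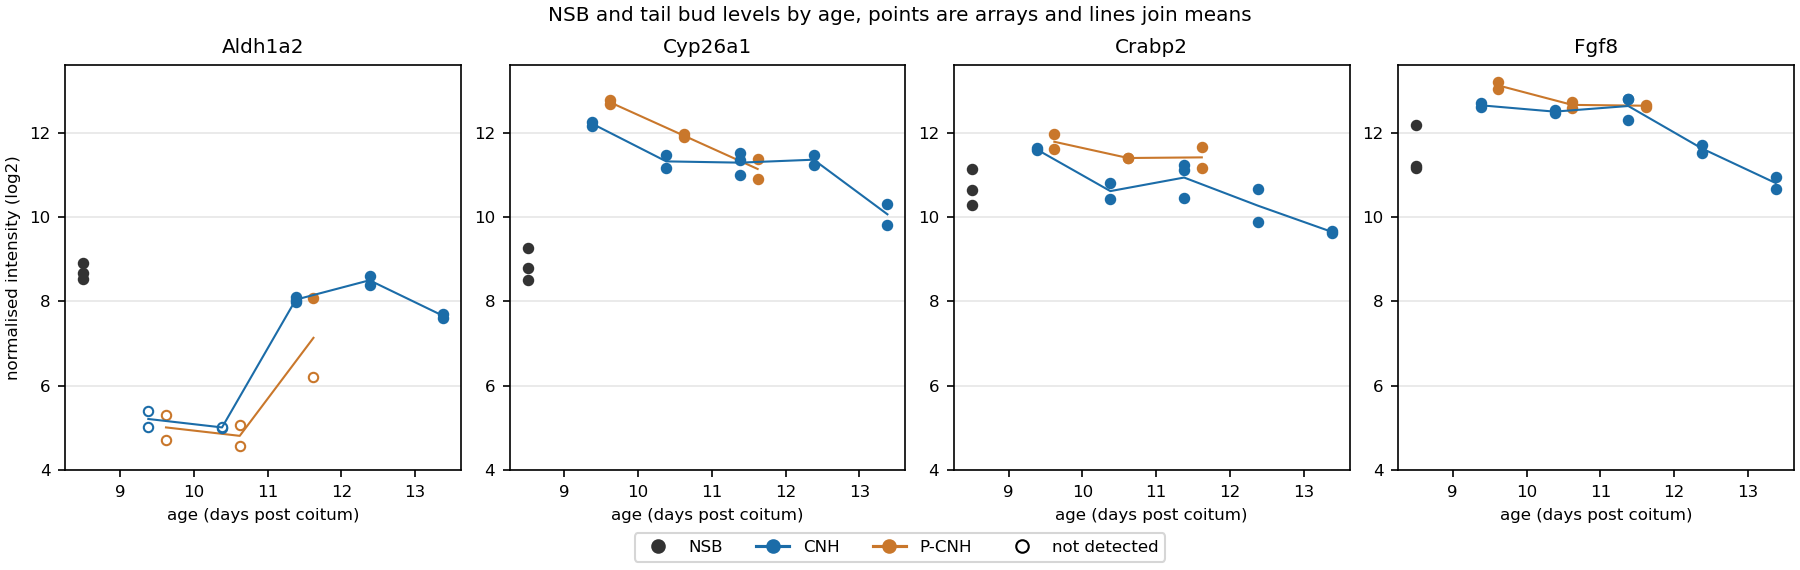
Normalised log2 intensity (y axis) of Aldh1a2, Cyp26a1, Crabp2 and Fgf8 against age (x axis) in NSB, CNH and P-CNH, with 1 point for each array, open where undetected, and lines through the means. Aldh1a2 steps up from 5.01 at E10.5 to 8.04 at E11.5 in the CNH, while Cyp26a1 and Fgf8 are lowest at E13.5 among the CNH stages.

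Surface ectoderm markers rose over the same CNH stages, 3 of 5 being called (Trp63, Krt14 and Cldn4), with sums of 296 and 320 at E9.5 and 4211 and 4261 at E13.5, when Krt14 was the brightest. All 3 tested endothelium markers rose (sums 137 and 153 at E9.5, 702 and 556 at E13.5). Somite markers summed to 763 and 716 at E9.5, 1254 and 1208 at E10.5, 1400, 1760 and 1458 at E11.5, 1486 and 908 at E12.5, and 1970 and 1690 at E13.5, and of the 4 tested Meox1 rose (0.65 ± 0.12) and Tcf15 fell by 0.34 (SE 0.09). Of the blood markers, Hbb-bh1 fell and Hbb-b1 rose. All 3 definitive endoderm markers were called, Trh (-0.81 ± 0.07) and Sox17 (-0.21 ± 0.06) falling and Cldn6 (0.64 ± 0.10) rising, and so were Noto (-0.47 ± 0.14), Mixl1 (-0.58 ± 0.10) and Olig3 (0.40 ± 0.07). Their part in the slopes was not tested.

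The CNH was compared with the P-CNH behind it at 3 stages. limma called 0 of 8 members between them at E9.5 (0 at an unadjusted p under 0.05), at E10.5 (1) and at E11.5 (1), where 0.170%, 0.318% and 0.161% of all probes were called. Cyp26a1 on both P-CNH arrays exceeded both CNH arrays at E9.5 and again at E10.5, but the fit did not separate them. At E10.5 the lowest unadjusted p was that of Crabp2 (-0.79 ± 0.31, adjusted p = 1.0), whose P-CNH arrays were both above those of the CNH and which batch 1 alone, holding all 4 arrays, called (with 2.58% of all probes), and at E11.5 that of Aldh1a2 (0.98 ± 0.44, adjusted p = 0.99). Of the responsive genes, 0 of 9 were called by limma at E9.5, E10.5 and E11.5, with 3, 3 and 4 at an unadjusted p under 0.05. The difference of CNH minus P-CNH between stages was tested too, and limma called 0 members in each of the 3 tests, with 0 at an unadjusted p under 0.05. All tested probes gave 0% for E10.5 minus E9.5, 0.0276% for E11.5 minus E9.5 and 0.00461% for E11.5 minus E10.5. Notochord markers did separate the regions, with Shh at least 21.4-fold higher in the E9.5 CNH and at least 34.9-fold at E10.5.

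Of the binding proteins, Crabp1 and Crabp2 were present in every region. Crabp1 ranged from 7.03 to 10.92 and was highest by mean in CLE (10.61, 10.92 and 10.37), then in St5 (10.25 and 10.07). Every E7.5 and E8.5 array was at 8.99 or above, and every CNH array of E9.5 to E12.5 was at 8.61 or below. None of the single comparisons called Crabp1 in the whole series, and from NSB to the E10.5 CNH it gave -1.15 ± 0.50 (adjusted p = 0.25). Batch 1 alone called it in St5 against the rest of E8.5 and in both E10.5 comparisons with E8.5 (where 13.7%, 19.7% and 21.1% of all probes were called), and batch 2 alone along the CNH (15.0%). Its E11.5 P-CNH arrays stood far apart (10.30 and 8.61), as did those of the E13.5 CNH (7.31 on the lower, mean 8.41). Crabp2 ranged from 9.36 to 11.96, highest in the E9.5 P-CNH (11.61 and 11.96) and CNH (11.63 and 11.58) and lowest in St5 (9.52 and 9.36) and the E13.5 CNH (9.63 and 9.67). In the order of its regions, St5 and the E13.5 CNH did not overlap, nor did the E13.5 CNH and PP, and all other neighbours overlapped. The patterns most like Crabp1 were those of Cplx1 (r = 0.937), Rhebl1 (0.903) and Zscan10 (0.891), and those most like Crabp2 were Scg5 (0.921), Nrxn2 (0.895) and Mapk12 (0.888).

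Of the receptors, Rarb was confined to early regions, as far as its probes measured it. Its level was 8.58 and 8.32 in E7.5 P, 7.49 and 7.63 in PP, and 6.91, 6.62 and 7.51 in A. It was 8.00 and 7.78 in RN, 6.53, 6.23 and 6.53 in NSB, and 7.76, 6.17 and 5.41 in CLE, where 1 of 3 arrays detected it. The lowest detected level of any probe on these CLE arrays was 7.10, 6.65 and 5.88. No array of St1, St5, CNH or P-CNH detected it, and these lay between 4.44 and 5.48. By mean, P came before RN, PP, A, CLE and NSB, with P, RN and PP not overlapping and PP, A, CLE and NSB overlapping in turn. The second probe put RN (7.72) before P (7.69), with overlapping arrays, then PP (7.07), NSB (5.86), A (5.72) and CLE (5.68). The patterns most like Rarb were Lhx1 (r = 0.917), B930076A02 (0.898) and 1700019D03Rik (0.896). Rarg was detected on every array, between 7.07 and 10.48, and in the whole series passed only the test across all regions (adjusted p = 3.6e-04). It was called in NSB minus St1 in batch 1 alone, and in St5 minus PP with the offset of 100 or with batch means removed. Its level differed by batch, with medians of 8.99, 8.22 and 9.86 in batches 1, 2 and 3, and within NSB the batch 3 array read 10.04 beside 8.63 and 8.77. The patterns most like Rarg were Aldh16a1 (r = 0.930), Tssk6 (0.928) and scl0001379.1_70 (0.925). Rara was detected on 8 arrays, at most 1 in a region, up to 7.53 in CLE, and none of its differences was called.

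Of the other lists as a whole, 7 of 13 tested other pathway genes, 9 of 9 responsive genes and 5 of 5 caudal signals differed across the 16 regions, where 35.6% of all probes did. Of the cell type lists, 4 of 4 somite, 3 of 3 presomitic mesoderm, 1 of 3 neural, 2 of 3 anterior neurectoderm, 4 of 5 notochord and node, 4 of 4 streak, 4 of 4 lateral plate, 3 of 3 endothelium, 7 of 7 visceral endoderm, 3 of 3 definitive endoderm, 5 of 5 surface ectoderm and 6 of 6 blood markers tested differed across the regions.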

How the data were processed

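For 45281 probes the authors deposited a linear mean bead intensity, not normalised between arrays. They also deposited a detection p-value beside each intensity. The neqc function (limma 3.58.1, R 4.3.3) subtracted background with normexp at an offset of 16, quantile-normalised and took log2. The filter kept 21712 probes, those that any array detected at a p under 0.01. A single limma fit of the 36 arrays had region (16) and labelled batch (3 of 12 arrays) as terms, leaving 18 residual degrees of freedom. Every adjusted p comes from limma's moderated two-sided test, with Benjamini-Hochberg adjustment over all tested probes of a comparison. Arrays detected between 23.9% and 35.9% of probes. Where a group had no detected array, a fold is a lower bound, with each such array at the higher of its own value and its lowest detected intensity. Members and lists were chosen with earlier results of these data known. Of each list, up to 3 called genes with the largest difference are named in a comparison. Some called genes of these lists are not reported. Likeness of patterns is Pearson's r over fitted region means, among symbols with an SD of at least 0.5. Alternatives tried were cyclic loess, the offset raised to 100, background left in, 3 other treatments of batch, single batches, the replicate block, 2 other filters, calls by any probe of a gene, and each array left out. Promoters were searched and figures drawn with Python 3.11.15, NumPy 2.4.6 and matplotlib 3.10.9.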

Additional observations from a re-analysis of the deposited data

How the results depend on the processing

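Of 24 called differences of members, 11 were called in the same direction in every setting that gave a value, though their sizes moved. A fold given as at least holds for the main settings only. No background correction, the batch means removed before the fit and the stricter filter (18570 probes) kept all 24. The offset of 100, cyclic loess, the BeadChip as a random block (consensus correlation 0.483) and no filter each lost 2, and no batch term lost 1. With the replicate block 1 of 24 was lost, that of Crabp2 in PP minus A (-1.06, adjusted p = 0.10), and the count of members called there was 2 beside 3. Whether the replicate numbers pair the arrays is not known. Of 26 same-numbered pairs, 10 had a correlation of deviations over 0.1 and 5 under -0.1 (-0.37 to 0.37). Such correlations cannot decide it, since some pairs join different stages or batches, and deviations of 2 arrays of a region mirror each other. In batch 1 the replicate number is also the BeadChip, and same-numbered pairs there gave -0.08 to 0.37, highest for E10.5 CNH and P-CNH. The fit of batch 1 alone had no BeadChip term, which left 6 residual degrees of freedom. The Aldh1a2 slope along the CNH turned to -0.16 in batch 3 alone, which lacks E9.5 and E10.5. Calls of the responsive, other pathway and caudal genes were less stable in some settings. Of 61 such differences, no batch term lost 11, no filter 9, and leaving out NSB replicate 1 lost 13. The offset of 100, cyclic loess, batch means removed and the replicate block each lost 3, and the stricter filter lost 0.

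Counts of members called moved as follows. In batch 3 alone they were 0 in PP minus A, along the CNH and across the regions, with 3 residual degrees of freedom. In batch 1 alone they were 2 in RN minus NSB, 3 in NSB minus St1, 1 in CNH minus P-CNH at E10.5, 5 in E10.5 P-CNH minus St1, 4 for RN, 5 for St5 and 4 in E10.5 CNH minus NSB, where 1.91%, 4.46%, 2.58%, 21.1%, 7.01%, 13.7% and 19.7% of all probes were called. Differences between regions of batch 1 are the same by construction there, and only their error is the batch's own. In batch 2 alone the counts were 3 in A minus P (1.75% of all probes) and 4 along the CNH (15.0%). With any probe of a gene, RN minus NSB gave 1. CLE minus St1 gave 1 with no batch term or with batch means removed. St5 minus PP gave 2 with the offset of 100, cyclic loess, no batch term, the BeadChip block, no filter or any probe, and 4 with batch means removed. The cause was not tested where fewer arrays do not show it.

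With single arrays left out, counts ranged from 1 to 3 in A minus P, 2 to 4 in PP minus A, 0 to 1 in RN minus NSB, 1 to 3 for RN, 2 to 4 for St5, 0 to 1 in CNH minus P-CNH at E11.5, 2 to 3 in E9.5 CNH minus NSB, 2 to 3 in E10.5 CNH minus NSB, 1 to 3 in St5 minus PP and 6 to 7 across the regions. The other counts did not move. Without NSB replicate 3 batch 1 has no link to the others, and comparisons across that link could not be fitted. A region left with 1 array is assumed to vary like the rest. Signal over background limits Rdh10, Rara, Dhrs3 and the low side of Aldh1a2 and Rarb.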
